A study of Danio rerio with 12 samples.

Results

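Silver nitrate (AgNO3), a soluble silver salt, was set directly against silver nanoparticles (AgNPs) in zebrafish larvae. The members of the comparison were the 6 arrays titled as control with AgNO3 and the 6 titled as control with AgNPs, which are all 12 arrays of the series. For each gene the quantity compared was the mean log ratio of exposed over control larvae in AgNO3 minus that in AgNPs, with dye orientation as a covariate. A value above 0 therefore means a higher ratio in the AgNO3 larvae.

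All fish were AB strain zebrafish of wild-type genotype, sampled as whole larvae at 21 days of age. The AgNO3 group spent 15 days, from 6 days post fertilization on, in 1 L tanks with 0.01 mg/L silver nitrate. The AgNPs group was kept in the same way for the same time with 0.01 mg/L silver nanoparticles. The control group, whose RNA was the other channel of every array, was kept in conditioned water with methylene blue and no silver. Each exposed group had 6 samples that the labels call biological replicates, 3 with the exposed RNA in the dye Cy5 and 3 with it in Cy3. From the codes in the descriptions there appear to be 6 control samples, and each was hybridised once with an AgNO3 sample and once with an AgNPs sample, in opposite dye orientations. The sources used here do not give the number of tanks, any pooling of larvae, the size and coating of the particles, or whether the dose counts silver or the whole compound. P-values therefore measure the spread between these samples, which may be technical in part.

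Dissolved silver ions harm freshwater fish chiefly at the gill, where they block the sodium pump and carbonic anhydrase and so the uptake of sodium from the water. Inside cells silver binds to sulfur, and metallothionein, a cysteine-rich protein that the metals themselves induce, takes it up. Nanoparticles release silver ions into water and can also enter cells as particles by endocytosis. The series asked for the effects of each form against control; the direct contrast asks whether the same nominal dose left different transcript levels depending on the form.

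No gene differed between AgNO3 and AgNPs larvae after adjustment. Of 25264 tested features, 14329 named genes and 10935 probes without a gene name, 0% passed a Benjamini-Hochberg adjusted p of 0.05 in limma, and the smallest adjusted p was 0.858. An unadjusted p under 0.05 was found for 1066 features (4.22%), fewer than the 1263.2 that chance alone would give; 417 of them were higher in AgNO3 (1.65%) and 649 lower (2.57%). Among the 14329 named genes alone, 292 were higher and 439 lower at this unadjusted limit, 5.10% together. The gene lists hold named genes only, so this share is a closer measure for them than 4.22%. All lists were chosen with earlier results of these samples known, so a list share above it is no independent evidence. Over all features, differences of either sign were nearly as frequent, 48.2% above 0 and 51.8% below. The median over all features was -0.01, with medians of -0.01 in AgNO3 and 0.00 in AgNPs, so the arrays were centred alike. Against control, by the same rule, 3 features passed in AgNO3 (0.0119%) and 6 in AgNPs (0.0237%), and 8.25% and 4.24% of features had an unadjusted p under 0.05.

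A missing call does not show that the forms act alike, and the intervals give what the 12 arrays could exclude. The standard error of a difference was 0.16 at the median (log2), with quartiles of 0.11 and 0.25. The 95% interval lay wholly within 0.5 of 0 on the log2 scale for 48.7% of features, within 1 for 83.3% and within 2 for 98.1%. Among named genes alone, 88.2% had intervals within 1. In 145 features the estimated difference itself was larger than 1, but 0 features had an interval wholly beyond 1. Differences beyond 1 on the log2 scale thus lay outside the interval for most genes, while smaller ones were not detectable for many of them at this number of arrays. The fit took the spread of a feature as equal on all 12 arrays, although the arrays differed in spread, as given next. How far this affects the intervals was not tested.

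The arrays of the 2 groups differed in how far their log ratios spread. Over the 17584 features with a value on every array, the interquartile range of the log2 ratios was 0.287, 0.320, 0.328, 0.306, 0.281 and 0.251 on AgNO3 replicates 1 to 6. On AgNPs replicates 1 to 6 it was 0.368, 0.248, 0.129, 0.0950, 0.0991 and 0.160. The AgNO3 arrays were thus of 1 kind, whereas among the AgNPs arrays replicate 1 was the widest of all 12, replicate 2 stood just below the narrowest AgNO3 array and replicates 3 to 6 far below it. The mean was 0.296 ± 0.0285 in AgNO3 and 0.183 ± 0.107 in AgNPs (SD, n = 6 each), a difference of 0.112 (2-sided exact permutation p = 0.0411). With the arrays paired by replicate number, or by shared control sample, the exact sign-flip p was 0.09375. Within the arrays with exposed RNA in Cy5 the difference was 0.0635 (exact permutation p = 0.6), and within those in Cy3 0.161 (exact permutation p = 0.1, the smallest that 20 splits allow). Without any 1 of AgNO3 replicates 1 to 5 or AgNPs replicates 3 to 6 the difference was 0.0946 to 0.115 and the exact permutation p 0.0519 to 0.0844. What set the narrow arrays apart was not tested.

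**Figure D1:**
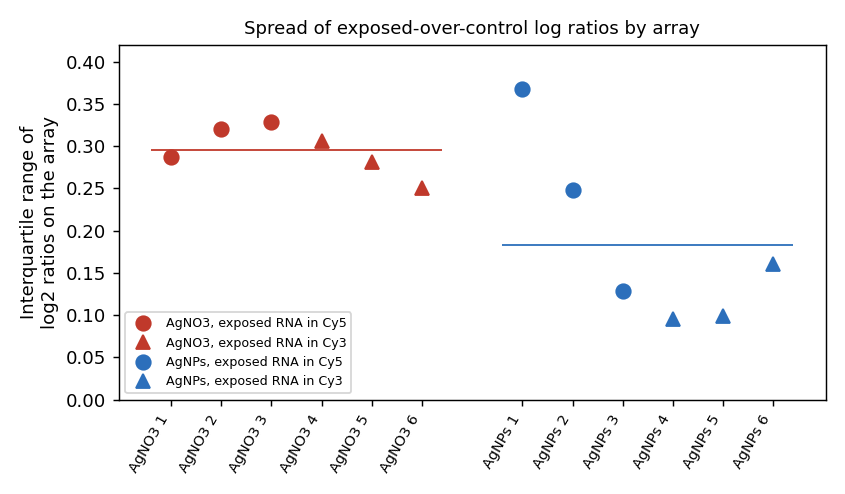
Interquartile range of the log2 ratios of exposed over control larvae on each array (y axis, log2 units), AgNO3 replicates at the left and AgNPs replicates at the right, with circles for exposed RNA in Cy5, triangles for Cy3 and lines for the group means. The AgNO3 arrays lie between 0.251 and 0.328, and AgNPs replicates 3 to 6 lie between 0.0950 and 0.160, below all of them, with AgNPs replicate 2 at 0.248 and replicate 1 at 0.368.

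The 24 named genes with the lowest p, 12 in each direction, show what the contrast holds at its edge. Their differences lay between 0.26 and 0.89 in size and their unadjusted limma p between 0.000107 and 0.00292, with the adjusted p at 0.858 for every one. These genes were picked by p on the same arrays. The counts that follow thus stem in part from that choice and are no independent evidence. All 24 had the same sign within both dye orientations. Across the 6 pairs of arrays that share a control sample, 13 of the 24 had 1 sign in 6 of 6 pairs and 8 more in 5 of 6. The arrays of such a pair have opposite dye orientations, so any dye effect enters the pair counts given here and below. Of the 19 genes with several probes, 18 had all probes on the same side. In 8 of the 24 the AgNO3 and AgNPs arrays did not overlap; over all 17584 features with 12 values this held for 31 with AgNO3 higher (0.176%) and 36 with AgNO3 lower (0.205%), 67 in all (0.381%). In 16 of the 24 the group means lay on opposite sides of 0. Whether the authors had already turned the dye-swapped arrays is not stated in the labels; with the values of the Cy3 arrays turned in sign, 8 of the 24 changed sign, and these were sec63, slc26a3.2, cpa1, si:ch73-52f24.4, hspa5, rbmx2, zgc:195245 and cip2a. If the deposited ratios ran as control over exposed, every sign given here would turn. With the Cy3 arrays turned, a value sets the difference within Cy5 against the difference within Cy3. If those arrays had been turned before deposit, such a value, here and below, is no second estimate of AgNO3 minus AgNPs.

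**Figure D2:**
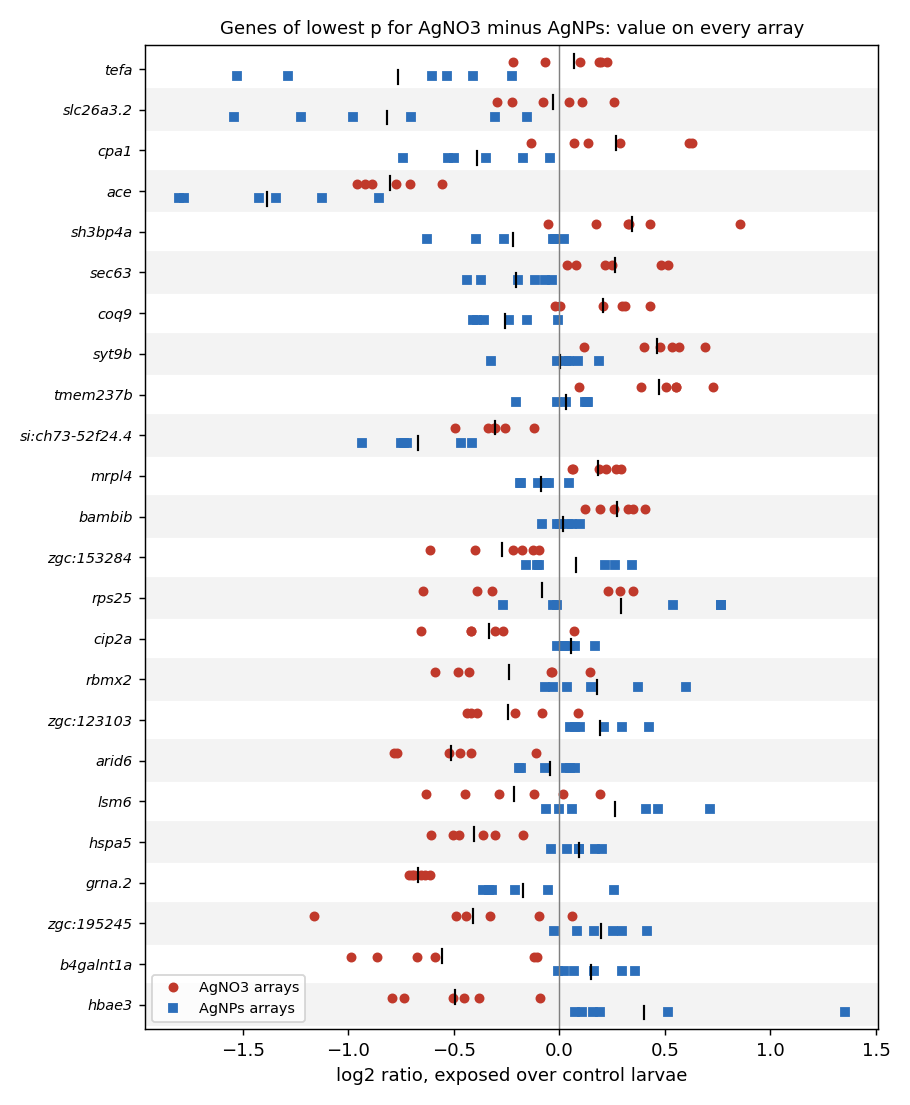
Log2 ratio of exposed over control larvae (x axis) on each array for the 24 named genes of lowest p (y axis), with AgNO3 arrays as circles in the upper line of each gene, AgNPs arrays as squares in the lower line, and short vertical bars for the group means. The 12 genes with the higher mean in AgNO3 stand at the top and the 12 with the lower mean at the bottom; hspa5 has no AgNO3 array above -0.17 and no AgNPs array below -0.04.

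The lowest p of all belonged to hspa5, which encodes BiP, the main folding chaperone of the endoplasmic reticulum (ER). Its log2 ratios were -0.30, -0.17, -0.50, -0.36, -0.47 and -0.61 on AgNO3 replicates 1 to 6, against 0.17, 0.09, -0.04, 0.20, 0.09 and 0.04 on AgNPs replicates 1 to 6. Every AgNO3 array was below every AgNPs array, AgNO3 lay below control on 6 of 6 arrays and AgNPs above it on 5 of 6. The difference was -0.50 (95% interval -0.68 to -0.31), with values of -0.40 and -0.59 within the Cy5 and Cy3 arrays and the same sign in all 6 probes. Without any 1 array it stayed between -0.54 and -0.46, but with the Cy3 arrays turned it was 0.10. An interval that excludes 0 here is not adjusted for the number of features tested.

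The partner that recruits BiP to the channel through which proteins enter the ER, sec63, stood on the other side. Its ratios on AgNO3 replicates 1 to 6 were 0.04, 0.22, 0.25, 0.48, 0.52 and 0.08, against -0.37, -0.04, -0.07, -0.44, -0.19 and -0.12 on AgNPs replicates 1 to 6. All AgNO3 arrays were above 0 and all AgNPs arrays below it, and the difference was 0.47 (0.22 to 0.71). The gene has 1 probe, and with the Cy3 arrays turned the difference was -0.14.

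The widest difference among the 24 was that of hbae3, an embryonic alpha globin gene. It had -0.45, -0.09, -0.38, -0.50, -0.79 and -0.74 on AgNO3 replicates 1 to 6, against 1.35, 0.16, 0.51, 0.07, 0.11 and 0.19 on AgNPs replicates 1 to 6. The groups did not overlap, all AgNO3 arrays were below control and all AgNPs arrays above it, and AgNPs replicate 1 stood far above the rest of its group. The difference was -0.89 (-1.28 to -0.51), and it was -0.73 with the array left out that moved it most towards 0. In RNA from whole larvae, fewer cells of a type and less RNA per cell cannot be told apart.

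Such a split over 0 on all 12 arrays was rare among the 17584 features with a value on every array. Whether it was more frequent than chance gives was not tested. With AgNO3 above and AgNPs below control on every array there were 2 features, sec63 and spon2b, and with AgNO3 below and AgNPs above there were 5, hbae3, ches1, cyth1b, enpp1 and an unnamed probe. The 4 of these genes not yet described were picked after their values were seen. The difference was 0.29 (0.10 to 0.48) for spon2b, a secreted matrix protein of the spondin family, and -0.48 (-0.79 to -0.17) for enpp1, which makes pyrophosphate outside cells. The difference was -0.27 (-0.56 to 0.02) for cyth1b, an exchange factor for ARF proteins of vesicle traffic, where AgNO3 replicate 4 at -0.88 stood apart from the other AgNO3 arrays at -0.12 to -0.04 and the difference without it was -0.14. For ches1 it was -0.50 (-0.97 to -0.03), and there AgNO3 replicate 6 at -1.49 stood apart, with -0.29 without it.

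Among the genes with higher ratios in AgNO3, 3 of the largest differences came from genes that were below control on every AgNPs array. The clock output factor tefa, a transcription factor of the PAR bZIP family, had 0.10, -0.22, 0.19, -0.07, 0.23 and 0.20 on AgNO3 replicates 1 to 6, against -1.29, -0.60, -1.53, -0.23, -0.41 and -0.53 on AgNPs replicates 1 to 6. The AgNPs arrays were all lower than the AgNO3 arrays, by a small margin at replicate 4. The difference was 0.83 (0.44 to 1.23), with 1.16 within the Cy5 arrays and 0.51 within the Cy3 arrays. The intestinal chloride and bicarbonate exchanger slc26a3.2 ranged from -0.30 over a median of -0.02 to 0.26 in AgNO3, against -1.54 over -0.84 to -0.15 in AgNPs, with a difference of 0.78 (0.36 to 1.21) and 5 of 6 control pairs higher in AgNO3. For cpa1, the pancreatic carboxypeptidase A1, the lowest, median and highest ratios were -0.13, 0.21 and 0.63 in AgNO3, against -0.74, -0.42 and -0.05 in AgNPs, and the difference was 0.66 (0.30 to 1.01). The AgNO3 and AgNPs arrays of slc26a3.2 and of cpa1 overlapped at their ends.

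Expression of ace, the angiotensin-converting enzyme, was below control on every array of both groups, and less so in AgNO3. The ratios were -0.92, -0.71, -0.89, -0.56, -0.96 and -0.77 on AgNO3 replicates 1 to 6, against -1.42, -1.80, -1.78, -0.85, -1.34 and -1.13 on AgNPs replicates 1 to 6. All AgNPs arrays but replicate 4 lay below all AgNO3 arrays. The difference was 0.59 (0.29 to 0.88), 0.83 within the Cy5 arrays and 0.34 within the Cy3 arrays, and 0.53 to 0.67 with any 1 array left out. A similar order was seen for si:ch73-52f24.4, which has no known role named here: -0.49, -0.31 and -0.12 were its lowest, median and highest ratios in AgNO3, against -0.94, -0.73 and -0.41 in AgNPs, a difference of 0.37 (0.16 to 0.58).

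For 4 genes the AgNO3 arrays were above control while the AgNPs arrays centred near it. The synaptotagmin gene syt9b, a calcium sensor of vesicle release, had 0.11, 0.51 and 0.69 as lowest, median and highest ratios in AgNO3, against -0.32, 0.04 and 0.19 in AgNPs. For tmem237b, a protein of the base of the cilium, these were 0.09, 0.53 and 0.73 in AgNO3 and -0.20, 0.08 and 0.13 in AgNPs. The differences were 0.46 (0.21 to 0.71) and 0.44 (0.19 to 0.68), and in both genes 1 AgNO3 array lay within the AgNPs range. Narrower but without overlap were bambib, a decoy receptor that dampens BMP and activin signals, with a difference of 0.26 (0.11 to 0.40), and mrpl4, a protein of the mitochondrial ribosome, with 0.27 (0.12 to 0.43). In AgNPs, mrpl4 had a median of -0.08 and was below control on 5 of 6 arrays. The last of the 12 were coq9, a lipid-binding protein of coenzyme Q synthesis, with 0.46 (0.23 to 0.70), and sh3bp4a, with 0.56 (0.24 to 0.89).

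On the other side, b4galnt1a, which makes complex gangliosides, ranged from -0.99 over a median of -0.63 to -0.11 in AgNO3, against -0.01 over 0.12 to 0.36 in AgNPs, without overlap. The difference was -0.71 (-1.03 to -0.38), -1.04 within the Cy5 arrays and -0.38 within the Cy3 arrays. The granulin gene grna.2, a member of a family of secreted growth factors, was nearly constant in AgNO3, with ratios between -0.71 and -0.61, against -0.36 to 0.26 in AgNPs. Its arrays did not overlap either, and the difference was -0.50 (-0.73 to -0.27). Other genes of this side were arid6 with -0.47 (-0.71 to -0.22), cip2a, an inhibitor of protein phosphatase 2A, with -0.39 (-0.60 to -0.18), zgc:195245 with -0.61 (-0.92 to -0.29), zgc:123103 with -0.43 (-0.66 to -0.20) and zgc:153284 with -0.35 (-0.55 to -0.15). Their AgNO3 and AgNPs arrays overlapped, and of the 4 probes of cip2a 1 was higher in AgNO3.

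In 3 genes of the 24 the ratios of each group were split by dye orientation. The ratios of rps25, a protein of the small ribosomal subunit, were 0.23, 0.35 and 0.29 on AgNO3 replicates 1 to 3 in Cy5 but -0.32, -0.39 and -0.64 on replicates 4 to 6 in Cy3. In AgNPs they were 0.77, 0.54 and 0.77 in Cy5, and -0.01, -0.27 and -0.03 in Cy3. Within each orientation every AgNO3 array was below every AgNPs array, with differences of -0.40 in Cy5 and -0.35 in Cy3, whereas over both orientations the groups overlapped widely and only 3 of 6 control pairs were lower in AgNO3. The splicing genes lsm6 and rbmx2 showed the same layout, rbmx2 with almost no gap in Cy5, with differences of -0.48 (-0.67 to -0.29) and -0.42 (-0.60 to -0.23) and 4 of 6 control pairs lower. Values of these genes moved with the dye. A dye effect common to both groups cancels from the difference, since the orientations were balanced in each group. Whether a dye effect that differed between the groups had a part was not tested.

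Of the genes that stood out against control, the remaining 3 gave differences of either sign. The green cone opsin gene opn1mw1 had 0.35, 0.46 and 0.57 as lowest, median and highest ratios in AgNO3, against 0.45, 0.90 and 1.15 in AgNPs, above control on all 12 arrays and lower in AgNO3 in 6 of 6 control pairs. The difference was -0.41 (-0.66 to -0.15). For ciarta, a repressor of the circadian clock, the difference was 0.26 (-0.07 to 0.60), and for guca1c, an activator of the guanylate cyclase of photoreceptors, it was 0.14 (-0.13 to 0.41), or 0.07 without AgNPs replicate 6. Both intervals include 0, and both genes were below control on all 12 arrays. The 2 probes of guca1c had opposite signs.

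Genes that handle metals were examined first among the gene lists, since both exposures deliver silver. Of 43 tested genes 15 were higher and 28 lower in AgNO3, with a median difference of -0.04 against -0.01 over all features (-0.09 without AgNO3 replicate 3 and -0.01 without AgNO3 replicate 6); with the Cy3 arrays turned 22 were higher and 21 lower. An unadjusted limma p under 0.05 was reached by 1 higher and 4 lower members, against 1.65% and 2.57% of all features, and 0 passed the adjusted threshold. Members at this unadjusted limit made up 11.6% of the list, against 5.10% of named genes. The metallothionein gene mt2 had ratios of -0.32, -0.09 and 0.32 (lowest, median, highest) in AgNO3, against 0.10, 0.22 and 0.39 in AgNPs. It was above control on 6 of 6 AgNPs arrays and on 2 of 6 AgNO3 arrays. The difference was -0.26 (-0.48 to -0.04), which came to 0.06 with the Cy3 arrays turned. Of the 5 probes of mt2, 1 was higher in AgNO3. The other metallothionein-like gene, mtbl, differed by 0.08 (-0.24 to 0.40), a value whose sign also changed with the Cy3 arrays turned, with the arrays scaled to a common spread and within the Cy5 arrays, and which was near 0 without AgNO3 replicate 5.

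Of the copper genes, slc31a1, the copper uptake transporter that is known to admit silver in other species, differed by -0.27 (-0.61 to 0.08). Without AgNO3 replicate 2 it was -0.16, AgNPs replicate 1 stood apart at 0.52, and of its 7 probes 4 were higher and 3 lower in AgNO3. The copper chaperone of superoxide dismutase, ccs, differed by -0.79 (-1.48 to -0.09), with ratios as low as -1.34 on AgNO3 replicate 5 and the highest value on AgNPs replicate 4. Among 19 zinc genes, slc30a4, a zinc exporter into vesicles, differed by 0.37 (0.12 to 0.62), slc39a7, which releases zinc from the ER, by -0.38 (-0.69 to -0.06), and the zinc importer slc39a5 by -0.90 (-1.79 to -0.01), where AgNO3 replicate 3 reached -2.54 and the difference without it was -0.52. Iron genes were lower in AgNO3 for 11 of 12 members, with a median of -0.09 (-0.17 to -0.05 with 1 array left out), yet 0 had an unadjusted p under 0.05; without AgNPs replicates 3 to 6 this was 9 of 12, and with the Cy3 arrays turned 6 of 12. The exception, cybrd1, a ferric reductase, differed by 0.43 (-0.19 to 1.04). The setting without AgNPs replicates 3 to 6, here and below, keeps only AgNPs replicates 1 and 2, both with exposed RNA in Cy5.

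Genes of ion uptake, the process silver ions block at the gill, showed no member with an unadjusted p under 0.05 among 51 tested, against 4.22% of all features. There 30 were higher and 21 lower in AgNO3, with a median of 0.03 that was 0.00 without AgNO3 replicate 1 and -0.04 with the Cy3 arrays turned. For 47 of the 51 the 95% interval lay within 1 of 0. The carbonic anhydrase genes ca2 and ca15a differed by 0.03 (-0.22 to 0.27) and -0.01 (-0.25 to 0.22), both of which changed sign with single arrays left out. Of the sodium pump, 10 of 15 subunit and regulator genes were higher in AgNO3, among them atp1a1a.2 with 0.27 (-0.02 to 0.56), whereas atp1a1a.4 had -0.20 (-0.42 to 0.02); both signs, and that of the pump genes' median, changed with the Cy3 arrays turned. The 2 probes of atp1a1a.4 had opposite signs. Transcripts give no measure of the enzyme activity that silver inhibits.

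Genes against oxidative damage were lower in AgNO3 for 33 of 56 members (32 with the Cy3 arrays turned), with a median of -0.04 that was -0.07 without AgNO3 replicate 1. At an unadjusted p under 0.05, 0 members were higher and 4 lower, against 1.65% and 2.57% of all features. The 4 made up 7.14% of the list, against 5.10% of named genes, and are glutathione genes. The peroxidase gpx4a, which protects membrane lipids, was below control on 6 of 6 AgNO3 arrays and above it on 5 of 6 AgNPs arrays, with a difference of -0.42 (-0.70 to -0.13) that turned to 0.31 with the Cy3 arrays turned. The glutathione transferases gstt1b, gsto1 and gstp1.1 differed by -0.44 (-0.69 to -0.18), -0.72 (-1.42 to -0.01) and -1.49 (-2.75 to -0.23). Genes of the Nrf2 pathway were lower for 8 of 11 members, with 0 at an unadjusted p under 0.05; the heme oxygenase hmox1a, with 5 values in AgNPs, differed by -0.26 (-0.78 to 0.26), and by -0.08 without AgNO3 replicate 4.

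The ER list split by the role of its members. All 16 tested chaperones and folding enzymes of the ER lumen were lower in AgNO3, with a median difference of -0.21 and medians of -0.12 in AgNO3 and 0.07 in AgNPs. Over all features 51.8% were lower. At an unadjusted limma p under 0.05, 0 of the 16 were higher and 4 lower, hspa5 among them. This limit was reached by 4.22% of all features and 5.10% of named genes. Beside hspa5, the members with an unadjusted p under 0.05 were calr3a, a calreticulin, with -0.33 (-0.60 to -0.05), creld2 with -0.39 (-0.75 to -0.04) and dnajb11, a co-chaperone of BiP, with -0.21 (-0.41 to -0.01). The value of creld2 was -0.0058 within the Cy5 arrays and -0.78 within the Cy3 arrays, came to -0.26 without AgNO3 replicate 4, and was lower in AgNO3 in 3 of 6 control pairs. The glucose-regulated chaperone hsp90b1 had -0.24 (-0.53 to 0.05) and the disulfide isomerase pdia4 -0.19 (-0.43 to 0.06). The median of the 16 on each array was -0.31 to -0.02 in AgNO3 and -0.02 to 0.16 in AgNPs, below 0 on 6 of 6 AgNO3 arrays and above 0 on 4 of 6 AgNPs arrays. With any 1 array left out 15 or 16 were lower, without AgNPs replicates 3 to 6 15 were, but with the Cy3 arrays turned only 9 were.

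The rest of the ER list had no common sign. The stress sensors and their transcription factors were higher in AgNO3 for 8 of 14 and the translocon and degradation genes for 9 of 17, with medians of 0.06 and 0.04. Neither median kept its sign with 1 array left out, running from -0.02 to 0.09 and from -0.06 to 0.10. Without AgNPs replicates 3 to 6, 10 of the 14 were higher but 14 of the 17 were lower, with a median of -0.10, and within the Cy5 arrays 12 of the 17 were lower. The degradation factor herpud1 differed by -0.60 (-1.09 to -0.11), opposite in sign to sec63. Since the ER list, like the other lists, was chosen with earlier results of these samples known, the common sign of its chaperones is no independent evidence.

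**Figure D3:**
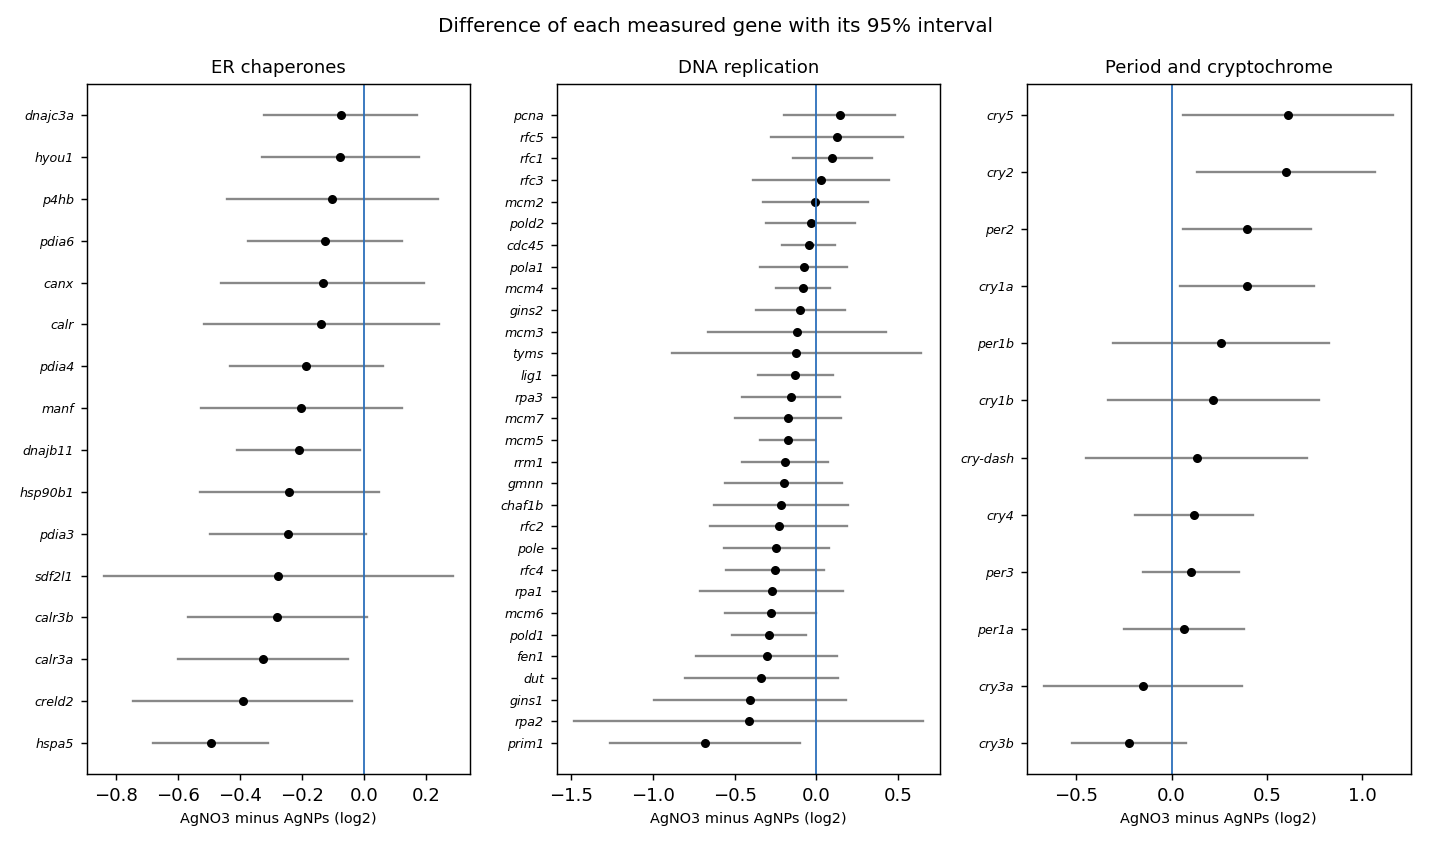
Difference AgNO3 minus AgNPs in mean log2 ratio (x axis) for each tested gene of 3 groups (y axis), with points for the estimates, grey lines for 95% intervals and a vertical line at 0. All 16 ER chaperones lie left of 0, as do 26 of 30 replication genes, and 10 of 12 period and cryptochrome genes lie right of it, while most intervals include 0.

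Other genes of protein quality control were mostly lower in AgNO3. Heat shock genes were lower for 27 of 41 with a median of -0.10. Their 1 member at an unadjusted p under 0.05 (2.44%, against 4.22% of all features) was the mitochondrial co-chaperonin hspe1 with -0.42 (-0.75 to -0.09). The list median was lower in AgNO3 in 6 of 6 control pairs but was -0.04 without AgNO3 replicate 4 and 0.02 with the Cy3 arrays turned. Proteasome subunits were lower for 32 of 48 (24 with the Cy3 arrays turned) with a median of -0.05, or -0.03 without AgNO3 replicate 2. At an unadjusted p under 0.05, 0 were higher and 6 lower, against 1.65% and 2.57% of all features. The 6 made up 12.5% of the list, against 5.10% of named genes. Of the 6, the core subunit psma5 differed by -0.49 (-0.82 to -0.15) and the cap ATPase psmc2 by -0.33 (-0.56 to -0.09). The value of psmc2 was -0.58 within the Cy5 arrays and -0.08 within the Cy3 arrays. It was lower in AgNO3 in 3 of 6 control pairs, and its 2 probes had opposite signs.

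Replication genes were lower in AgNO3 for 26 of 30, with a median of -0.17 that came from ratios of 0.07 in AgNO3 and 0.21 in AgNPs. An unadjusted p under 0.05 was found for 4 of the 30, 13.3% against 4.22% of all features and 5.10% of named genes. These were pold1, the catalytic subunit of DNA polymerase delta, with -0.29 (-0.52 to -0.07), and the primase prim1 with -0.68 (-1.26 to -0.10). The others were the helicase subunits mcm5 with -0.18 (-0.35 to -0.01) and mcm6 with -0.28 (-0.56 to -0.0023). The signs of mcm5 and mcm6 changed with the Cy3 arrays turned. The replication median was 0.34 on AgNPs replicate 1 and 0.22 on replicates 2 and 6, against 0.14 or less on every AgNO3 array, and 3 of 6 control pairs were lower in AgNO3. Mitosis genes were lower for 17 of 23, with a median of -0.10 (-0.13 to -0.05 with 1 array left out). Their 1 member at an unadjusted p under 0.05 (4.35%) was the survivin gene birc5a with -0.59 (-1.05 to -0.13). With the Cy3 arrays turned 19 of the 30 replication genes were still lower.

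Innate immune genes were lower in AgNO3 for 45 of 55 (31 with the Cy3 arrays turned), with a median of -0.11 that came to -0.05 without AgNPs replicate 1 (39 or more of 55 lower with any 1 array left out) and to -0.18 without AgNO3 replicate 2. Members with an unadjusted p under 0.05 were 3, all lower, which at 5.45% is near the 4.22% of all features and the 5.10% of named genes. The macrophage pore-forming protein gene mpeg1.1 ranged from -0.59 over -0.46 to -0.20 in AgNO3, against -0.12 over -0.06 to 0.50 in AgNPs, without overlap, and its difference was -0.45 (-0.72 to -0.19). The others were grna.2 and the lysozyme gene lygl1, with -0.59 (-1.05 to -0.13). In myd88, the adaptor of Toll-like receptors, the arrays did not overlap either, but its difference of -0.30 (-0.64 to 0.04) came to -0.14 without AgNO3 replicate 5. The lysosomal protease ctss2.1, a cathepsin of antigen-presenting cells in mammals, had -0.69 (-1.08 to -0.30), with 1 of its 3 probes higher in AgNO3. Of the 25 macrophage and neutrophil genes on the innate immune list 19 were lower (15 with the Cy3 arrays turned) and 6 higher. The highest was the macrophage receptor gene csf1ra with 0.28 (-0.01 to 0.58), higher in AgNO3 in 6 of 6 control pairs. This gene is also on the pigment cell list, and RNA from whole larvae does not tell in which cells it differed. Interferon response genes were lower for 11 of 16, with a median of -0.15 that was -0.04 without AgNO3 replicate 4, 0.04 without AgNPs replicates 3 to 6 and 0.05 with the Cy3 arrays turned; isg15, a ubiquitin-like protein, had -0.59 (-1.10 to -0.09).

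Clock genes leaned the other way. Of 37 tested, 25 were higher in AgNO3, with 7 higher and 1 lower at an unadjusted p under 0.05, against 1.65% and 2.57% of all features. Members at this limit made up 21.6% of the list, against 5.10% of named genes. The median of 0.10 came to 0.04 without AgNPs replicate 1. The parts of the list were not alike. Of 10 PAR bZIP output and nfil3 genes, tefa among them, 4 were higher and 6 lower, with a median of -0.04. Repressors of the Rev-erb, Dec and CIART type were higher for 7 of 8, and activators for 4 of 7. Among the period and cryptochrome genes, whose proteins repress the clock's activators, 10 of 12 were higher (8 with the Cy3 arrays turned), with a median of 0.18. The cryptochrome gene cry2 ranged from -0.91 over -0.54 to 0.22 in AgNO3, against -1.33 over -1.02 to -0.58 in AgNPs, and per2, a light-induced repressor, from -0.24 over -0.05 to 0.29, against -0.82 over -0.34 to -0.08. Their differences were 0.60 (0.13 to 1.07) and 0.40 (0.06 to 0.73), and those of cry1a and the photolyase-related cry5 were 0.40 (0.05 to 0.75) and 0.61 (0.06 to 1.16).

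The median of these 12 genes was below 0 on 6 of 6 AgNPs arrays, widest on replicates 1 and 2 with -0.41 and -0.42, and above 0 on 5 of 6 AgNO3 arrays. The Rev-erb gene nr1d1, a repressor of bmal genes, had 0.49 (0.01 to 0.96), with 0.90 within the Cy5 arrays and 0.07 within the Cy3 arrays. Of the activators, roraa had 0.79 (0.20 to 1.38), while bmal1a, above control on all 12 arrays, had -0.21 (-0.87 to 0.44), with 0.0038 without AgNPs replicate 5. The member with an opposite sign at an unadjusted p under 0.05 was nfil3-5, a repressor of PAR bZIP targets, with -0.56 (-1.03 to -0.08). Its AgNO3 ratios were 0.44 to 0.75 on the Cy5 arrays but -0.70 to -0.19 on the Cy3 arrays, and AgNPs replicate 2 stood apart at 1.78. The gene has 1 probe, and its sign changed with the Cy3 arrays turned. The sources used here do not give the hour of sampling, so a difference in hour between the groups cannot be told apart from one between the silver forms.

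Photoreceptor genes held 12 of 51 members at an unadjusted p under 0.05, which is 23.5% against 4.22% of all features and 5.10% of named genes. The list holds opn1mw1, which an earlier account of these data had called against control. The 12 members at this limit were split evenly into 6 higher and 6 lower. The split followed role in part. Transducin and phosphodiesterase genes, which carry the light signal on from the opsins, were lower in AgNO3 for 12 of 16, with a median of -0.19. The cone transducin gamma genes gngt2a and gngt2b had -0.43 (-0.69 to -0.18) and -0.41 (-0.80 to -0.02), but the cone transducin alpha gene gnat2 had 0.37 (0.01 to 0.73); the signs of gngt2b and gnat2 changed with the Cy3 arrays turned, and gnat2 came to 0.24 without AgNO3 replicate 6. Of the opsins, opn1lw2 for red light ranged from 0.24 to 0.64 in AgNO3, against 0.69 to 2.81 in AgNPs, with a difference of -0.77 (-1.48 to -0.06) that was -0.43 without AgNPs replicate 6 and 0.30 with the Cy3 arrays turned, and opn1mw3 had -0.21 (-0.41 to -0.01). The opsin gene rhol went the other way, with 0.14 (0.01 to 0.27).

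Genes that end the light response or recycle retinoid were higher in AgNO3 for 12 of 17, with a median of 0.12. The counts of 12 for both groups were the same with the Cy3 arrays turned. The retinol dehydrogenase gene rdh8a ranged from 0.16 over 0.32 to 0.59 in AgNO3, against -0.04 over 0.06 to 0.10 in AgNPs, without overlap, with a difference of 0.28 (0.10 to 0.47). The cone opsin kinase gene grk7a had 0.46 (0.03 to 0.89), and kcnv2b, a potassium channel subunit listed with the cyclases and channels, had 0.48 (0.13 to 0.84). Copies of opsin and globin genes lie in near-identical families, and whether their probes bind more than 1 copy was not tested.

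**Figure D4:**
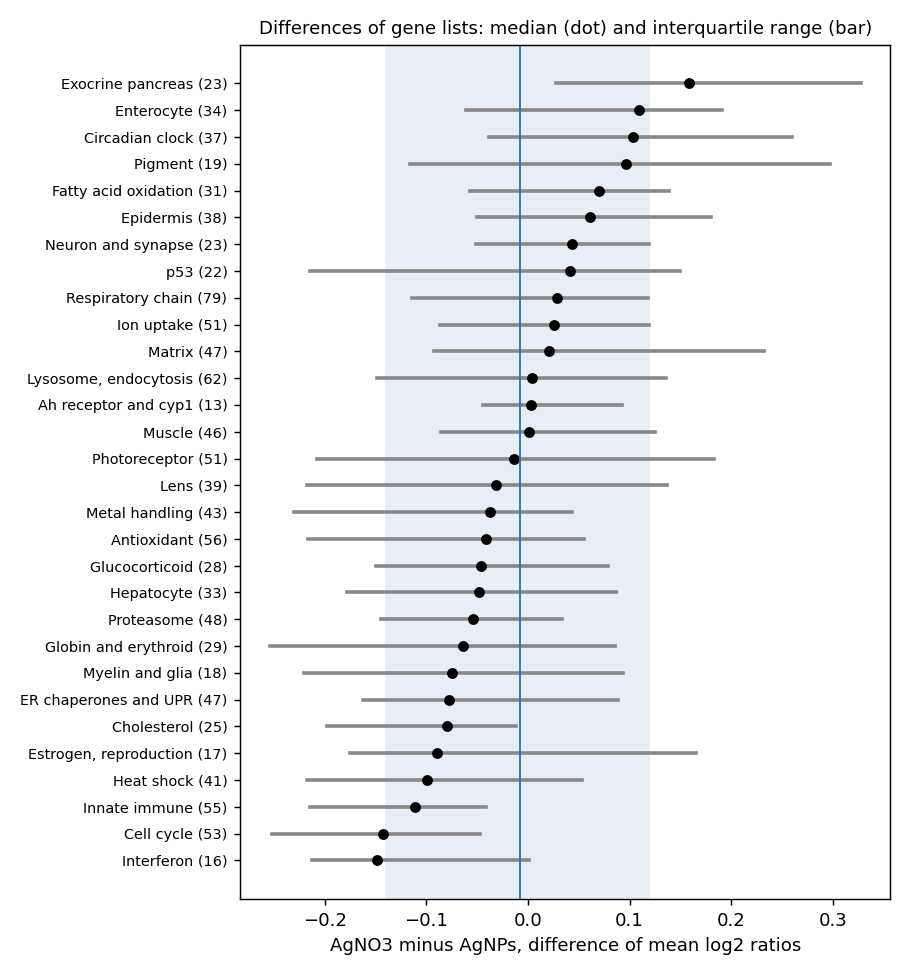
Median difference AgNO3 minus AgNPs in mean log2 ratio (x axis, dots) with the interquartile range of the members (bars) for 30 gene lists (y axis, number of tested genes in brackets); the vertical line is the median of all tested features and the shaded band their interquartile range. Exocrine pancreas genes have the highest median, 0.16, and interferon genes the lowest, -0.15, and every bar overlaps the band.

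The lists of the exocrine pancreas and of enterocytes had medians above 0. Exocrine pancreas enzymes were higher for 18 of 23 (17 with the Cy3 arrays turned), with medians of 0.15 in AgNO3 and -0.04 in AgNPs. The median difference was 0.16, and 0.11 to 0.24 with 1 array left out, the highest without AgNO3 replicate 3. It was 0.27 within the Cy5 arrays and 0.09 within the Cy3 arrays. At an unadjusted p under 0.05, 5 members were higher and 0 lower, against 1.65% and 2.57% of all features. The 5 made up 21.7% of the list, against 5.10% of named genes. Beside cpa1 they were the chymotrypsinogen gene ctrb.1 with 0.41 (0.11 to 0.70), the carboxypeptidase genes cpb1 with 0.38 (0.08 to 0.67) and cpa5 with 0.41 (0.06 to 0.75), and the bile salt lipase gene cel.1 with 0.39 (0.01 to 0.77). On single arrays the list median ranged from -0.13 to 0.37 in AgNO3 and from -0.25 to 0.25 in AgNPs, so the groups overlapped widely. Enterocyte genes were higher for 22 of 34 (23 with the Cy3 arrays turned), with a median of 0.11 that came to 0.03 without AgNO3 replicate 1. At an unadjusted p under 0.05 there were 3 members, 8.82% against 4.22% of all features and 5.10% of named genes. These were ace, slc26a3.2 and the amino acid transporter subunit slc3a1, whose 0.63 (0.01 to 1.25) came to 0.40 without AgNPs replicate 1.

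Globin and erythroid genes were higher for 13 of 29 and lower for 16, with a median of -0.06 that ran from -0.13 without AgNO3 replicate 2 to -0.02 without AgNPs replicate 5. At an unadjusted p under 0.05, 0 were higher and 3 lower, against 1.65% and 2.57% of all features. Of 6 embryonic globins 4 were lower; hbbe2 had -0.45 (-0.86 to -0.04), and hbbe1.1 had 0.04 (-0.18 to 0.27). Of 5 adult globins 3 were higher, although hbaa1 had -0.61 (-1.48 to 0.26), which came to -0.19 without AgNPs replicate 3, an array at 2.62. The iron importer of mitochondria in red blood cells, slc25a37, had -0.30 (-0.57 to -0.03). Its value was -0.05 within the Cy5 arrays and -0.55 within the Cy3 arrays, and changed sign with the Cy3 arrays turned. Of its 5 probes 2 were higher in AgNO3.

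Tissue lists differed in how many members had an unadjusted p under 0.05, which was 4.22% over all features and 5.10% over named genes. Muscle genes had 0 of 46, with 23 higher and 23 lower and a median of 0.00, and pigment cell genes 0 of 19. Hepatocyte genes had 1 higher and 1 lower of 33, the tyrosine-degrading enzyme gene fah with 0.27 (0.06 to 0.48), whose arrays did not overlap, and the apolipoprotein gene apom with -0.47 (-0.81 to -0.13). Neuronal genes had 1 of 23, elavl3 with 0.41 (0.03 to 0.78), and glial genes 3 of 18 (16.7%), all lower, among them the water channel gene aqp4 with -0.42 (-0.75 to -0.08). Epidermal genes were higher for 25 of 38. Of these 38, 5 (13.2%) passed that limit, 4 of them higher and 1 lower, with the keratin gene cyt1l at 0.42 (0.12 to 0.72) and icn2 at -0.56 (-0.90 to -0.23); the median of 0.06 was -0.05 with the Cy3 arrays turned, 0.10 without AgNO3 replicate 2 and 0.03 without AgNPs replicate 4. The deposited values are ratios, which hold no level of any gene, so the presence of each tissue in the larvae could not be checked from its markers.

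Genes of endocytosis and lysosomes, the route by which particles can enter cells, stood at the middle of the distribution. Of 62 tested, 32 were higher and 30 lower in AgNO3, with a median of 0.00. At an unadjusted p under 0.05, 1 member was higher and 4 lower, 8.06% against 4.22% of all features and 5.10% of named genes. Beside ctss2.1, the clathrin adaptor gene clint1a was below control on 6 of 6 AgNO3 arrays and differed by -0.23 (-0.40 to -0.07). Of the 3 probes of clint1a, 1 was higher in AgNO3. For 56 of the 62 the interval lay within 1 of 0. Genes of the aryl hydrocarbon response had a median of 0.00 as well, and the respiratory chain, with 43 of 79 higher, one of 0.03 that was -0.02 without AgNO3 replicate 5. Of the coenzyme Q genes 9 of 11 were higher (6 with the Cy3 arrays turned), with coq9 the 1 member at an unadjusted p under 0.05 (9.09%).

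**Figure D5:**
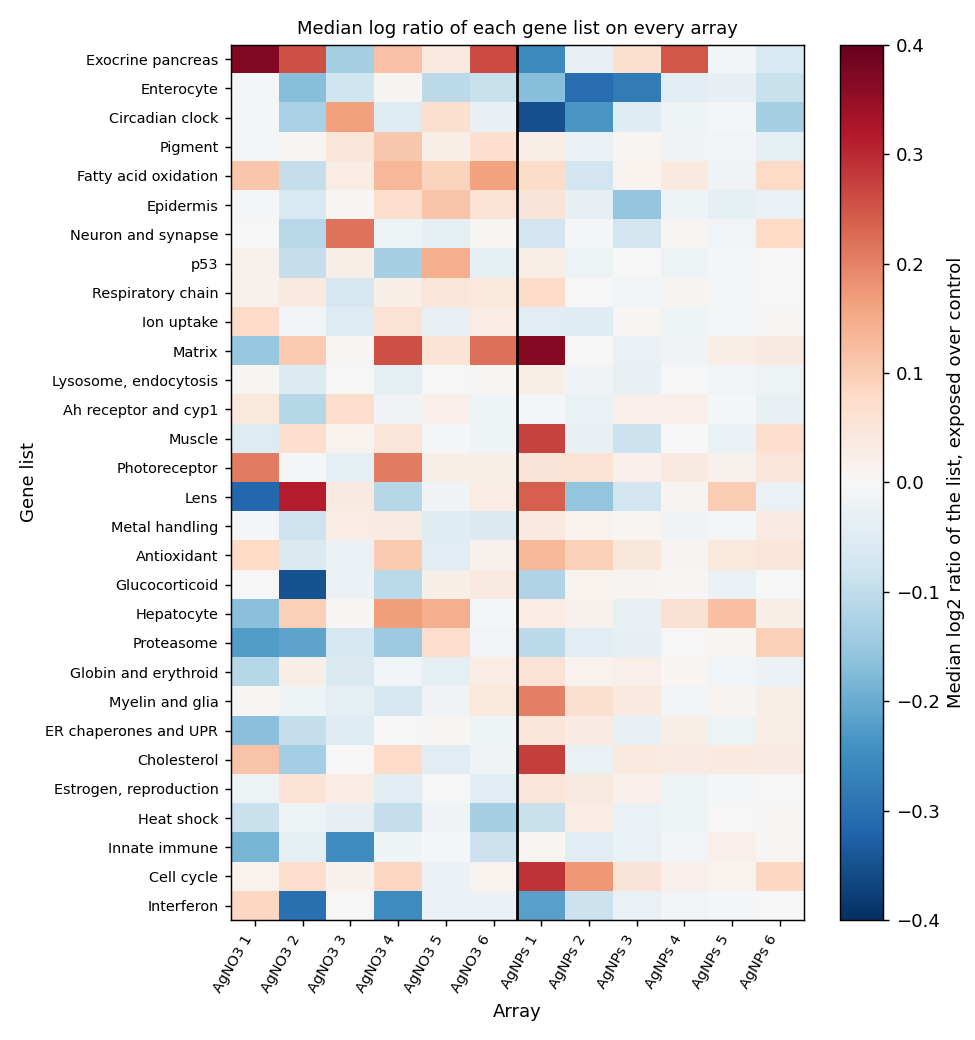
Median log2 ratio of exposed over control larvae (colour scale) of each of 30 gene lists (y axis) on each array (x axis), AgNO3 replicates left of the black line and AgNPs replicates right of it. The cell cycle median is 0.29 on AgNPs replicate 1 and 0.08 or less on AgNPs replicates 3 to 6, and no list separates the 6 AgNO3 from the 6 AgNPs arrays.

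No list of the 30 separated the groups on the level of single arrays: for every one the range of medians over the 6 AgNO3 arrays overlapped that over the 6 AgNPs arrays. The sign of the median difference was kept in all 24 alternative settings other than turning the Cy3 arrays for 17 lists, and for 11 of these it was also kept with those arrays turned. These 11 were the antioxidant, cell cycle, cholesterol, clock, enterocyte, ER, exocrine pancreas, globin, hepatocyte, innate immune and proteasome lists. Their medians lay between -0.14 and 0.16. Some of the 24 settings could not move the difference of a gene with a value on every array. These were leaving out the dye term, the replicate and control blocks, group variance weights and robust variance shrinkage. Many of the others left out only a single array. A sign kept in all 24 is thus weaker evidence than that count makes it seem. Turning the Cy3 arrays is a check only if they were deposited unturned. Otherwise the sign of the turned median does not bear on whether a list differed between the groups.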

How the data were processed

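Agilent arrays with both dyes compared RNA of exposed and control whole larvae. The authors deposited 1 log ratio per probe and array (43603 probes), taken here as log2; the base is not named, and values reached -8.02 and 7.67. The sources used here do not give the scanner software, background correction or normalization. Empty values made up 6.97% to 10.9% of each array, and medians per array were -0.0093 to 0.015. Since the labels leave unstated if dye-swapped arrays were turned, values were used as deposited; that they run as exposed over control is likely, not settled. Array number limits the precision.

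Probes were named through the platform annotation and RefSeq symbols (30186 of 43603 had 1 symbol, 13417 none) and averaged per gene. A feature needed values on 2 of 3 arrays of each dye orientation in each group. limma 3.58.1 (R 4.3.3) fitted a mean per exposed group and a dye term over all 12 arrays, with 9 residual degrees of freedom; AgNO3 minus AgNPs was tested 2-sided with Benjamini-Hochberg adjustment over all 25264 features at 0.05. Intervals are 95%. The fit was run on simulated data whose noise was independent, of the same spread on all 12 arrays for each feature, and without dye effects. That run cannot show how the fit fares with the unequal array spread seen here. Array spread was compared by an exact permutation test. Residual correlations of paired arrays were -0.147 to 0.0127 by replicate number and -0.0172 to 0.0694 by control number. Taken about means of up to 3 arrays, they cannot show that a shared control sample left no dependence. The main fit held no term for it.

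The members and the gene lists were chosen with earlier results of these data known. Genes were named by rule: the 12 of lowest p in each direction with 12 values, the 2 of lowest p in each of 30 lists, and 6 genes called against control in an earlier account. Further genes were named for their known role (mt2, mtbl, hmox1a, ca2, ca15a, atp1a1a.2, atp1a1a.4 and slc31a1), and the other members of lists named in the text were picked after their values were seen. Alternatives changed the dye term, the sign of the Cy3 arrays, array scaling and weights, the filter, the averaging of probes, the block and the arrays included. No column of values was left out.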

Additional observations from a re-analysis of the deposited data

Results flagged for a closer look

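Of 302 gene or list values tested within a group, 38 held an array whose gap to its nearest neighbour exceeded Dixon's 95% critical value, which chance alone gives in about 1 group in 20. AgNPs arrays held 29 of them, 17 on replicate 1, and AgNO3 arrays 9. All values are log2 ratios of exposed over control larvae.

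AgNPs replicate 1 was the highest of its group for hbae3 (1.35), cyp1c1 (0.94), mpeg1.1 (0.50), col11a1b (0.84), slc39a7 (0.70), plp1b (0.57), gap43 (0.71), psma5 (0.71), slc31a1 (0.52), mcm6 (0.50) and hbba2 (0.028), and for the list medians of cholesterol (0.28), matrix (0.36), glia (0.20) and respiratory chain genes (0.076). It was the lowest for ryr1a (-1.60) and for the glucocorticoid median (-0.12). AgNPs replicate 2 was the highest for dmrt1 (0.18), nfil3-5 (1.78) and kcnv2b (0.85). AgNPs replicate 3 was the highest for icn2 (0.97), hbaa1 (2.62) and enpp1 (0.80), and the lowest for gpx4a (-0.28), nsdhl (-0.26) and ctrb.1 (-0.81). AgNPs replicate 5 was the lowest for klf9 (-0.72) and the highest for slc39a5 (0.79), and replicate 6 was the highest for opn1lw2 (2.81).

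In AgNO3, replicate 1 was the lowest for sdhc (-0.78). Replicate 3 was the highest for the neuronal median (0.22) and the lowest for the respiratory chain median (-0.066). Replicate 4 was the lowest for hbba2 (-1.18) and cyth1b (-0.88), and replicate 5 for myd88 (-1.12) and ccs (-1.34). Replicate 6 was the highest for gnat2 (0.97) and the lowest for ches1 (-1.49).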

How the results depend on the processing

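No feature passed the adjusted threshold under any planned setting (at an unadjusted limma p under 0.05, 1066 as reported and 869 to 1420 otherwise, but 1607 with probes not averaged), except 1 without AgNO3 replicate 4 (arid6), so that leaving out 1 array gave 0 to 1. Without AgNPs arrays 3 to 6, chosen after seeing the data, 7 passed, ugt5g2 (-3.70, against -0.93 on all arrays) and 6 unnamed probes. That setting kept only AgNPs replicates 1 and 2, both with exposed RNA in Cy5, and replicate 1 had the widest spread of all arrays. The replicate block gave 0 passing and 953 at an unadjusted p under 0.05, and control number as a block 0 and 1353. The difference in array spread, 0.112, had an exact sign-flip p of 0.09375 with the replicate block and with control pairs; without 1 array it was 0.0946 to 0.149. With the Cy3 arrays turned, 44 of 120 named genes changed sign: sec63 -0.14, slc26a3.2 -0.089, cpa1 -0.068, si:ch73-52f24.4 -0.14, hspa5 0.10, rbmx2 0.064, zgc:195245 0.19, cip2a 0.083, ugt1a1 -0.11, gpx4a 0.31, nsdhl -0.011, acads -0.18, slc25a37 0.25, hsp90aa1.1 0.10, irf9 -0.066, atp1b3b -0.070, atp1a1a.2 -0.025, crygm2d3 0.18, mylpfb -0.044, ryr1a -0.15, aqp4 0.080, elavl3 -0.023, gap43 0.17, sesn2 0.060, guca1c -0.11, mt2 0.057, mtbl -0.12, ca2 -0.10, atp1a1a.4 0.064, nfil3-5 0.22, bmal1a 0.022, creld2 0.39, dnajb11 0.034, lygl1 0.013, myd88 0.13, mcm5 0.011, mcm6 0.034, hbba2 0.17, opn1lw2 0.30, gngt2b 0.13, gnat2 -0.10, ccs 0.33, cyth1b 0.12, ches1 0.12. In Cy5 arrays alone mtbl was -0.043 and ca2 -0.075, in Cy3 arrays alone pmelb 0.019 and ca15a 0.081, with arrays scaled to a common spread mtbl -0.12, and with array weights ca15a 0.0068. Leaving out 1 array gave ca2 -0.038 to 0.091, ca15a -0.058 to 0.057 and bmal1a -0.37 to 0.0038; without AgNPs arrays 3 to 6 ca2 was -0.10 and gngt2b 0.053. The causes were not tested. Signal over background is unknown, since intensities were not used here.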
